A study of Trichechus manatus latirostris with 11 samples.

Results

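The 6 genes CSF3R, ANXA3, BST1, ALPL, AQP9 and FPR1 code for receptors, surface enzymes, a membrane channel and an annexin that are known from circulating neutrophils. They were looked up in the deposited comparison table by their RefSeq symbols in the TriManLat1.0 manatee assembly. Each gene had 1 row, and together they were 6 of the 9641 different symbols in the table. The genes were selected on the group means of this same table and grouped by what their proteins do, and AQP9 and FPR1 were kept because they ran against the other 4. The group means of the 6 genes are therefore a description, and no test is made on them.

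Buffy coat is the layer of white cells and platelets between plasma and red cells in centrifuged blood. The red tide group held 4 adult Florida manatees (Trichechus manatus latirostris) under treatment for red tide illness at Lowry Park Zoo, now ZooTampa. The control group held 7 adults, of which 2 were sampled in Brevard County (Indian River Lagoon), 4 in Crystal River and 1 at the same zoo while it recovered from pneumonia. These were free-ranging or rescued animals exposed in the wild, not dosed ones. Of the red tide animals, 2 were sampled on arrival and 2 after a week of treatment. Exposure and date of sampling went with the groups and cannot be told apart from them, and place and care overlapped between the groups through 1 control at the zoo, whose library cannot be picked out. On storage the sources differ, since the labels give RNAlater (an RNA preservative) for every sample while the methods also have the red tide samples frozen straight away. The libraries were depleted of ribosomal and globin RNA. The deposited table gives the mean normalized count, that is, reads divided by a size factor for the depth of each library, over 11 libraries, over 4 and over 7. These columns do not name their groups. In all 15298 rows the overall mean was the 4-library and 7-library means weighted by 4 and 7, the sizes of the red tide and control groups, so the means are named here by their number of libraries. Group size is 1 piece of evidence for which mean belongs to which group. The comparison's title, which names red tide before the other 7, is another if the columns follow its order. The direction words in the study's text, for genes of this same table, read the opposite way. The conflict could not be settled from the sources used here. Lower and higher therefore refer throughout to the 4-library mean against the 7-library mean, and no value is assigned to red tide or control animals. The total reads per library are not in the table. Size factors, read from the lowest means, stand for the relative depth of counted reads, not of all reads sequenced. They ran from 0.372 to 1.56 in the 4 libraries and from 0.702 to 1.73 in the 7. The study's range of total reads per sample is narrower in proportion. Deepest and shallowest below refer to size factor.

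Neutrophils mature in the bone marrow under granulocyte colony-stimulating factor (G-CSF), filling granules first with azurophil proteins and later with specific and gelatinase proteins, and gaining receptors and surface enzymes toward the end of this course. Mature cells are released into blood, where they follow chemokines and bacterial formyl peptides to sites of infection. Several of their surface genes are also used by monocytes, so none of the 6 genes marks a neutrophil alone. In RNA from mixed blood cells, fewer cells of a type and less RNA per cell cannot be told apart.

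Of the 6 genes, 4 were at least 2-fold lower in the 4-library mean (CSF3R, ANXA3, BST1 and ALPL), 1 was at least 2-fold higher (AQP9), and FPR1 lay within 2-fold. Over all 15298 rows, 10.4% were at least 2-fold lower in the 4-library mean and 23.9% were at least 2-fold higher. Where the overall mean was at least 10 these shares were 9.59% and 12.3%. As the 6 genes were picked on this contrast, their count is set beside these shares without further reading. The 4 lower genes had folds of 3.85 to 7.39, and the log2 ratio of ALPL minus that of AQP9 was -4.71.

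**Figure D1:**
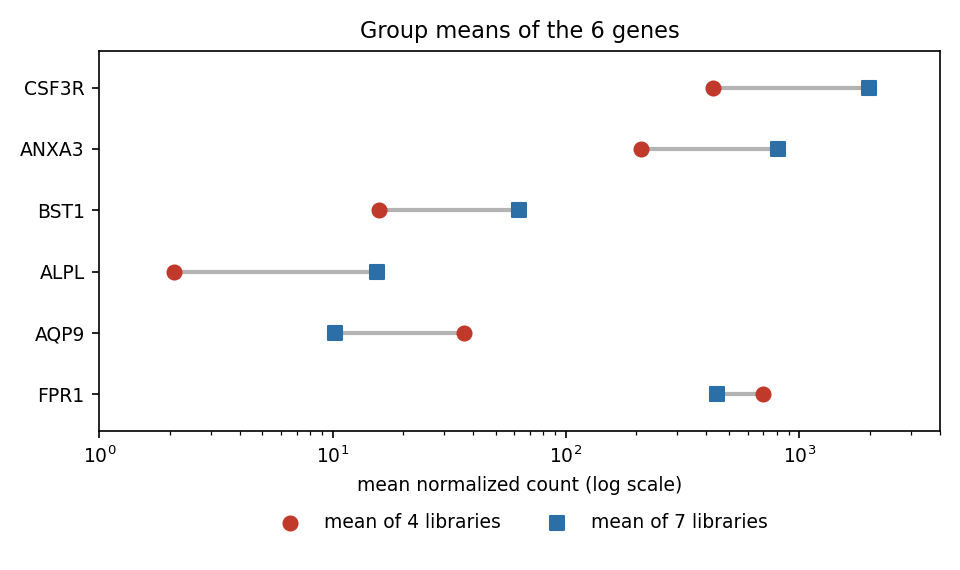
Mean normalized count (log axis) of each gene in the 4 libraries (red circles) and the 7 libraries (blue squares), with a grey line joining both means of a gene. CSF3R, ANXA3, BST1 and ALPL have the 4-library mean on the left, and AQP9 and FPR1 have it on the right.

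CSF3R (XM_004372094.1) codes for the G-CSF receptor, through which neutrophil production, maturation and survival are driven. Its mean was 425 normalized counts over the 4 libraries and 1990 over the 7 libraries. The 4-library mean was 4.68-fold lower, which is -2.23 as a log2 ratio, the 4-library mean divided by the 7-library mean throughout. Its 7-library mean was above that of 97.0% of all rows, while its 4-library mean was above that of 85.1%. At means this high many combinations of reads give the same mean, so the spread between libraries is not known for CSF3R, nor for ANXA3 and FPR1.

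Genes of the pathway below the G-CSF receptor differed less between the groups than the receptor, which was itself picked on these means. Of the 21 genes listed for it, 11 were found, of which 1 was at least 2-fold lower in the 4-library mean and 2 (MCL1 and SOCS1, a feedback inhibitor) were at least 2-fold higher. The median log2 ratio of these 11 was -0.15, against 0.17 over all genes with a symbol. At an overall mean of 9.76, SOCS1 rests mostly on the library with size factor 0.372, at 45.7 normalized counts. Its values in the other libraries were 1.95 to 7.70, and its 7-library mean was 6.96. JAK1, a kinase that binds cytokine receptors, had means of 6855 over the 4 libraries and 6313 over the 7. PTPN11, a phosphatase that acts in receptor signalling, had means of 1119 and 1241. The adaptor GAB2 had the lowest log2 ratio of the 11, -1.39, and MCL1, which protects myeloid cells from apoptosis, the highest at 1.26. CSF3R had a lower ratio than all 11, which its selection on these means favours.

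Among other receptors for blood cell growth factors, 6 of 12 listed genes were found, with a median log2 ratio of -0.02. Of these, 1 was at least 2-fold lower in the 4-library mean and 1 at least 2-fold higher. IL6ST, the shared signalling chain of the IL-6 family, had means of 683 over the 4 libraries and 638 over the 7, and FLT3, a receptor of progenitor and dendritic cells, had 763 and 563. The eosinophil receptor chain IL5RA had the lowest log2 ratio, -2.93, and was the single gene of the 6 below CSF3R. The growth hormone receptor GHR had the highest, 1.43.

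The transcription factors of granulocyte development included the lowest ratio in any of the lists. CEBPE, which is needed for the late steps of granulocyte maturation and for specific granules, reached 86.4 in the 7-library mean and 5.35 in the 4-library mean, which was 16.1-fold lower. From the deepest to the shallowest of the 4 libraries, its recovered normalized counts were 3.21, 5.84, 9.67 and 2.69, from 18 reads in all. All 4 values lay under the 7-library mean. CEBPB, which is used in emergency granulocyte production and in monocytes, had means of 1106 over the 4 libraries and 798 over the 7. ETV6, with means of 140 and 186, lay within 2-fold, and so did LEF1, which acts in early granulocyte precursors and in lymphocytes, with 207 and 125. In all, 2 of the 6 genes found of 12 (CEBPE and SPI1, which codes for PU.1) were at least 2-fold lower, none was 2-fold higher, and the median log2 ratio was -0.58.

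FPR1 (XM_004381865.1) codes for the formyl peptide receptor, which senses peptides released by bacteria and by damaged mitochondria. Its mean was 698 normalized counts over the 4 libraries and 442 over the 7. The 4-library mean was 1.58-fold higher, a log2 ratio of 0.66, and 31.7% of all rows had a higher ratio. FPR1 thus ran in the opposite direction to CSF3R, whose log2 ratio minus that of FPR1 was -2.88. Its spread is not known, so whether this difference exceeds the spread between libraries was not tested.

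Genes that act with or below the formyl peptide receptor mostly had the lower mean in the 4 libraries. Of 27 listed, 11 were found, and 9 of these had a log2 ratio below 0, but 1 passed 2-fold. Their median log2 ratio was -0.76. The G protein subunit GNAI3 had means of 4410 over the 4 libraries and 3881 over the 7, and DOCK2, which activates Rac in moving leukocytes, had 3333 and 4657. FPR1 had a higher ratio than all 11, but it was kept for its direction in these same means.

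The other neutrophil surface receptors also ran in both directions. Of 25 listed, 11 were found, of which 4 were at least 2-fold lower in the 4-library mean (CXCR2, CXCR1, MMP25 and SELPLG) and 2 at least 2-fold higher (TLR4 and CLEC4E), with a median log2 ratio of -0.68. CXCR2, the receptor for neutrophil-attracting chemokines, had the lowest log2 ratio at -3.19, with the same doubt as to which group the 4 libraries are. Its recovered normalized counts, deepest library first, were 12.8, 38.0, 168 and 43.0, and the 7-library mean was 598. The library with size factor 0.620 was the high one, and all 4 stayed under the 7-library mean. ITGB2, the beta chain of the leukocyte integrins, had means of 3572 over the 4 libraries and 3481 over the 7. TLR4, the receptor for bacterial lipopolysaccharide, had the highest log2 ratio, 1.67. FPR1 ranked below 2 of the 11 by ratio and above the other 9.

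BST1 and ALPL share a feature that the choice of genes did not use. Both proteins are enzymes held on the outer face of the membrane by a glycosylphosphatidylinositol (GPI) anchor. BST1 (CD157) belongs to the ADP-ribosyl cyclase family and takes part in neutrophil adhesion, and ALPL is the alkaline phosphatase whose activity appears late in neutrophil maturation. Both means of these genes were low enough in the 4 libraries for the reads of each library to be recovered.

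BST1 (XM_004390898.1) averaged 63.1 normalized counts in the 7 libraries. From the deepest to the shallowest of the 4 libraries its values were 2.57, 24.3, 9.67 and 26.9, from 4, 25, 6 and 10 reads. The deepest library was the lowest and the shallowest was the highest, and all 4 lay under the 7-library mean. The 4-library mean was 15.9 ± 11.7 (SD, n = 4), 3.97-fold lower, a log2 ratio of -1.99. With each library left out in turn the fold lay between 3.11 and 5.17.

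ALPL (XM_004377157.1) averaged 15.5 normalized counts in the 7 libraries and 2.10 ± 3.04 (SD, n = 4) in the 4. Its reads, deepest library first, were 0, 2, 4 and 0, or 0, 1.95, 6.45 and 0 normalized counts. The library with size factor 0.620 held 4 of the 6 reads. A count of 0 allows up to 1.92 normalized counts in the deepest library and up to 8.07 in the shallowest, taking 3 reads as the limit, and both limits lay under the 7-library mean. The 4-library mean was 7.39-fold lower, a log2 ratio of -2.89, the lowest of the 6 genes, and 0.536% of all rows had a lower ratio. It rests on few reads. The exact 95% Poisson interval of the 6 reads was 2.20 to 13.1, counting error only. Without the library of size factor 0.620 the fold was 23.9, and without any other single library it was 5.54 to 7.21.

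**Figure D2:**
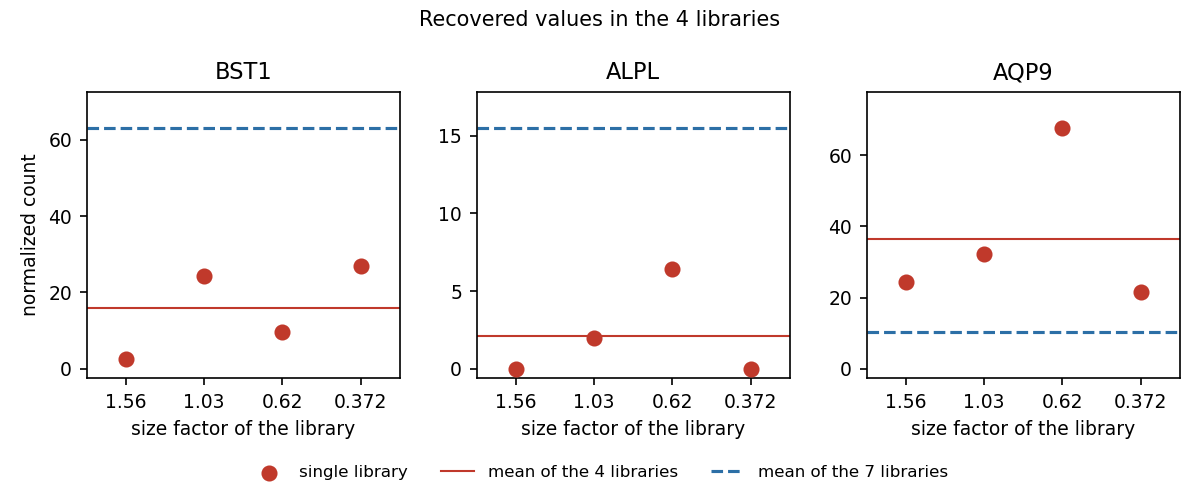
Normalized counts of BST1, ALPL and AQP9 in each of the 4 libraries, ordered by falling size factor, with the mean of these libraries (solid line) and the mean of the 7 libraries (dashed line). All points of BST1 and ALPL lie under the dashed line and all points of AQP9 lie above it.

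The proteins that share the anchor, or the substrates, did not follow BST1 and ALPL as a group. Of 18 other GPI-anchored leukocyte proteins listed, 6 were found, of which 4 were at least 2-fold higher in the 4-library mean (PLAUR, SEMA7A, RECK and THY1) and 1 at least 2-fold lower (MMP25), with a median log2 ratio of 1.21. SEMA7A, RECK and THY1 rest on 5, 4 and 4 reads in the 4 libraries. Only PLAUR and MMP25, which is also among the surface receptors above, reached an overall mean of 10, and over those 2 the median was 0.63, within 2-fold. PLAUR, the urokinase receptor of activated myeloid cells, had means of 599 over the 4 libraries and 103 over the 7. MMP25, the leukolysin protease of neutrophils, had 7.19 and 17.4. For the synthesis of the anchor itself, 16 of 28 genes were found, 2 of them (PIGA and PIGZ) at least 2-fold higher in the 4-library mean and none at least 2-fold lower, with a median log2 ratio of 0.13 (-0.09 over the 12 with an overall mean of at least 10). PIGA, which acts in the first step of the synthesis, had means of 178 and 31.8, while PIGF had 185 and 347. PGAP1, which remodels the anchor, had means of 2411 and 1895, and PIGC had 438 and 384.

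Among enzymes and transporters of NAD and phosphate, 5 of 13 listed genes were found, with a median log2 ratio of 0.04. None was at least 2-fold lower in the 4-library mean. The phosphate transporter SLC20A1 had means of 3601 over the 4 libraries and 835 over the 7. NAMPT, which makes NAD precursors, had 1970 and 1094. The phosphatase PHOSPHO1 had the lowest ratio of the 5, with means of 12.1 and 21.2. BST1 and ALPL had lower ratios than all 5, which their selection on these means favours.

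AQP9 (XM_004374609.1) codes for a channel that passes water, glycerol and other small solutes, present in leukocytes and liver. In the 4 libraries its normalized counts, deepest first, were 24.4, 32.1, 67.7 and 21.5, from 38, 33, 42 and 8 reads. The library with size factor 0.620 was the high one, and all 4 lay above the 7-library mean of 10.3. The 4-library mean was 36.4 ± 21.3 (SD, n = 4), 3.54-fold higher, a log2 ratio of 1.83, and 13.4% of all rows had a higher ratio. With each library left out in turn the fold lay between 2.53 and 4.03. The values of the 7 libraries add up to 72.0, so at most 3 of them can reach the lowest of the 4, and at least 4 lay under it.

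Other aquaporins were sparse. Of 11 listed, 3 were found. AQP11, which lies in membranes inside the cell, had means of 17.1 over the 4 libraries and 87.4 over the 7, a log2 ratio of -2.35, opposite to AQP9. AQP4, the main water channel of the brain, had 19.6 and 2.32, and its recovered normalized counts in the 4 libraries ran from 0 to 50.0. AQP8 lay within 2-fold, and the median of the 3 was -0.08.

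ANXA3 (XM_004383116.1) codes for annexin A3, a calcium-dependent phospholipid-binding protein inside the cell that is abundant in neutrophils, so it is not a surface protein. Its mean was 210 normalized counts over the 4 libraries and 810 over the 7. The 4-library mean was 3.85-fold lower, a log2 ratio of -1.94, and 2.48% of all rows had a lower ratio. Of 11 other annexins listed, 5 were found, of which 1 was at least 2-fold lower in the 4-library mean and none 2-fold higher, with a median log2 ratio of -0.24. ANXA11 had means of 278 over the 4 libraries and 588 over the 7. ANXA5, which binds exposed phosphatidylserine, had 969 and 1028, and ANXA4 had 417 and 396. ANXA3 had a lower ratio than all 5, which its selection on these means favours.

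**Figure D3:**
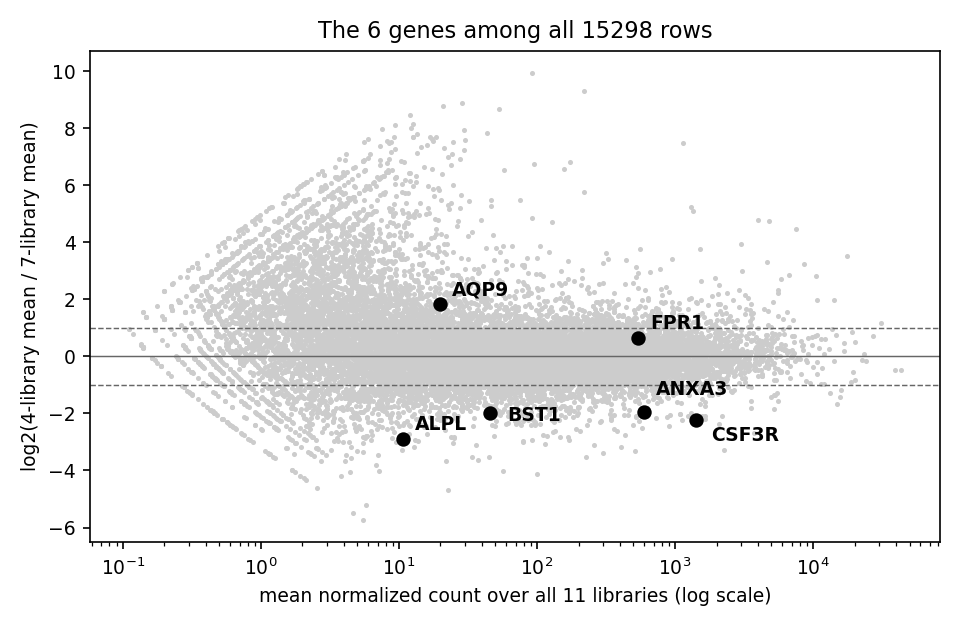
Log2 ratio (4-library mean divided by 7-library mean) against the mean over all 11 libraries (log axis) for all 15298 rows (grey) and the 6 genes (black), with dashed lines at 2-fold. AQP9 lies above the upper dashed line, FPR1 lies between the lines, and CSF3R, ANXA3, BST1 and ALPL lie below the lower line at means from 10.6 to 1421.

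The genes nearest to each of the 6 in both group means were found by the distance between log2 means, over 2 group means only. CSF3R was nearest to TLR8, an endosomal receptor for RNA, at a distance of 0.39, and to PDCD10 at 0.55. ANXA3 was nearest to ATP8B4 (0.08) and TRIM38 (0.22). BST1 was nearest to PHEX (0.07) and LOC101345779 (0.13), and ALPL to ZNF672 (0.23) and SNX24 (0.33). AQP9 lay within 0.02 of SLCO4A1 and ST7. FPR1 lay within 0.02 of SPTSSA and 0.03 of GTF2F2.

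Genes of neutrophil granules and of other mature neutrophil proteins were read beside the 6 genes. Of 13 genes of specific and gelatinase granules and other mature neutrophil proteins, 9 were found, of which 7 were at least 2-fold lower in the 4-library mean and 2 at least 2-fold higher (OLFM4 and ARG1, both at overall means under 10), with a median log2 ratio of -1.54. Their means summed to 1811 over the 4 libraries and 10028 over the 7. Most of both sums came from S100A9 (835 and 5429) and S100A8 (576 and 2961). S100A9 and S100A8, the subunits of calprotectin, had 6.50-fold and 5.14-fold lower 4-library means. The gelatinase MMP9 was 9.97-fold lower in the 4-library mean, with the doubt about groups given above, and CHIT1, a chitinase also made by macrophages, was 2.17-fold lower. Azurophil granule genes, which immature cells transcribe, had few counts, with 2 of 6 found. MPO had means of 4.44 over the 4 libraries and 2.34 over the 7, and AZU1 had 1.45 and 0.280.

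Markers of other cells differed in direction. Of 8 platelet genes, 5 were found and 4 (ITGB3, TUBB1, GP9 and ITGA2B) were at least 2-fold higher in the 4-library mean, with a summed mean of 15250 over the 4 libraries and 4419 over the 7. The integrin chains ITGB3 and ITGA2B were 4.64-fold and 2.08-fold higher, and the platelet tubulin TUBB1 was 4.49-fold higher, while GP1BA, the receptor for von Willebrand factor, had means of 72.1 and 41.1. Of 11 monocyte genes, 7 were found, 2 lower (CCR2 and CX3CR1) and 1 higher by at least 2-fold, with summed means of 2584 and 3426. CCR2 was 6.21-fold lower, LYZ had 1243 and 1839, and CSF1R had 449 and 496. Of 10 eosinophil and basophil genes, 4 were found, with summed means of 16.7 and 53.8. Of these, 3 (IL5RA, EPX and GATA2) were at least 2-fold lower, EPX by 4.62-fold. IL5RA, EPX and GATA2 rest on 11, 21 and 6 reads in the 4 libraries. The summed means were 363 and 499 for T cell genes (3 of 10 found), 770 and 771 for B cell genes (3 of 8), 7.94 and 9.60 for NK cell genes (2 of 8) and 186 and 487 for erythroid genes (3 of 9). CD2 of T cells was 2.33-fold lower with CD28 at 219 and 185. MS4A1, BLK and PAX5 of B cells lay within 2-fold, as did PRF1 of NK cells. EOMES, at 0.993 and 4.19, was 4.22-fold lower, from 3 reads in the 4 libraries. ALAS2 of red cell precursors, at 168 and 467 most of both erythroid sums, was 2.78-fold lower. KLF1 was 2.66-fold higher, from 9 reads in the 4 libraries (0, 3, 2 and 4, deepest first), and SLC4A1 lay within 2-fold. Every marker found had a mean above 0 in both groups, as did all 15298 rows. This holds by the make-up of the table and does not show that a cell type was present in both groups. The part of these shifts in the values of the 6 genes was not tested.

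**Figure D4:**
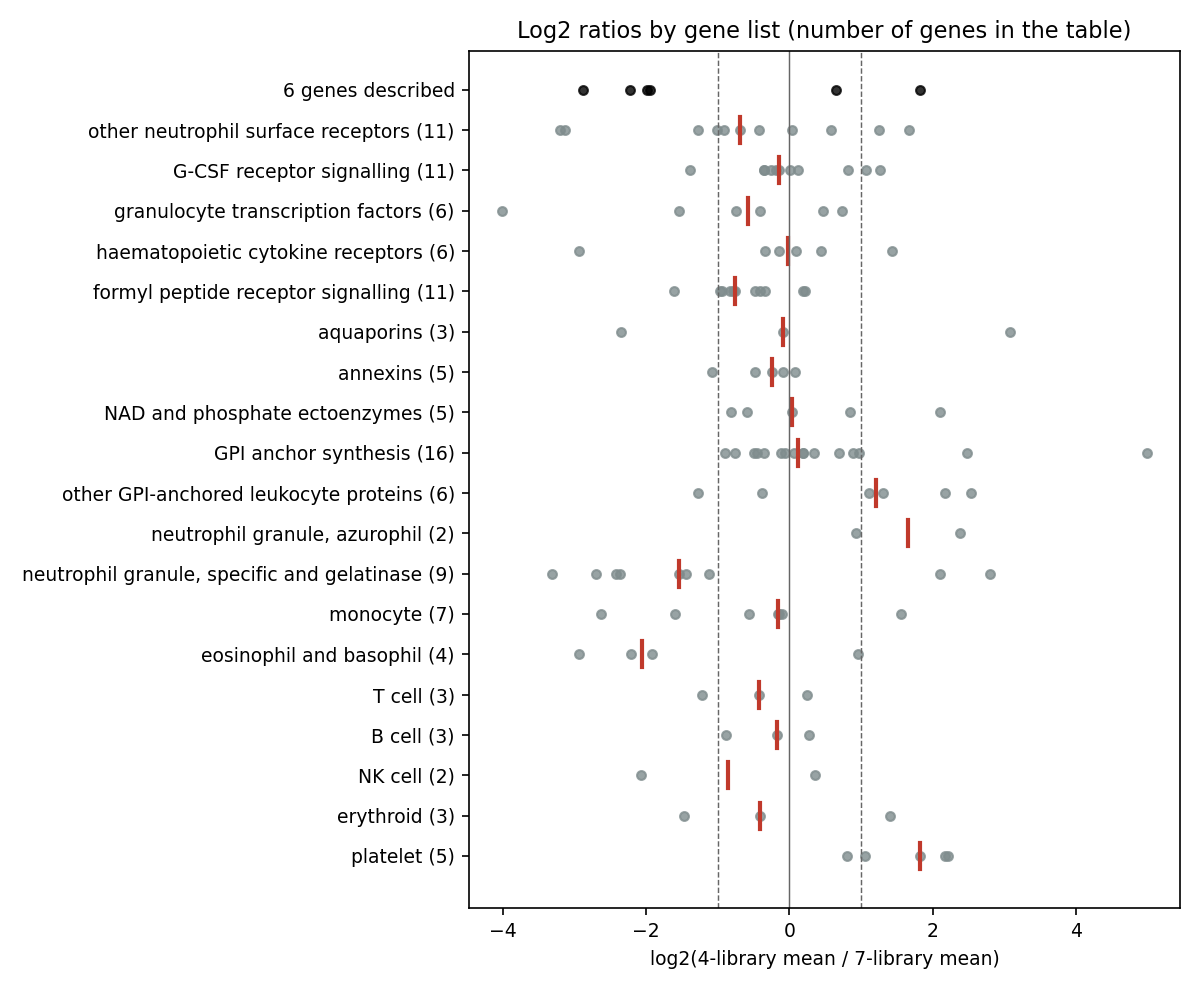
Log2 ratio (4-library mean divided by 7-library mean) for the 6 genes (top row, black) and for each gene found of every list (grey), with the list's median as a red bar, the number of genes found in brackets and dashed lines at 2-fold. The specific and gelatinase granule list, which also holds other mature neutrophil genes, has a median of -1.54. The platelet genes have a median of 1.82, while the 6 genes lie on both sides of 0.

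Among the 4 libraries, BST1 and ALPL were highest in different ones. The library with size factor 0.620 had the highest ALPL and AQP9, and also the highest CXCR2 and summed surface receptor counts (343 over the 5 genes with recovered reads, against 56.4 to 115 in the other libraries). The same library had the highest counts of the platelet genes GP9 and GP1BA, which summed to 330 there and to 59.2 to 90.5 elsewhere. BST1 was at 9.67 in it, below its value in the libraries of size factor 1.03 and 0.372. With 4 libraries these orders are given as values only.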

How the data were processed

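Paired reads were made from the buffy coat RNA of 11 manatees, 4 in the red tide group and 7 in the control group. The authors trimmed reads with Cutadapt, mapped them to TriManLat1.0 with Bowtie2, removed duplicates, retained unique alignments, counted reads per gene and ran DESeq in the DEB tool. The counts came from in-house scripts, and which annotation release they used is not given in the sources used here. Each of the deposited signal columns is a mean of counts divided by the authors' size factors. Other columns hold the authors' fold changes and p-values and were not used. No column belongs to a single sample, so no test of counts was possible (0 per-sample columns were left unused), and ratios of group means are described with no p-value.

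Records were matched to RefSeq symbols without their version number (10080 of 15298 rows, of which 1658 also matched with it). For a list gene with several rows the row of highest mean was used. Scaffolds are not named there and no sequence or transcript length was at hand, so no coordinates or sequences are given. Ranks, sums and distances of means across genes are not corrected for transcript length. Values are mean normalized counts unless another quantity is named.

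The worth of 1 read in the mean of each library was solved from the lowest means, upward, then fitted by least squares. For the 79 rows of interest with a 4-library mean up to 80, the single whole-read combination within 6e-10 (means below 10) or 6e-09 (above) was taken, and all 79 gave one. The step was tested on simulated data of 388 genes, where the true reads came back, as the one combination possible, in 100%. This does not link a library to an animal. Intervals and limits for counts of 0 cover counting error only.

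The 6 genes and the 19 gene lists were chosen with earlier results of these data known. Named genes are the 6, the 2 nearest genes of each, and, per list, the 2 of highest mean and, among means of at least 10, those of highest and lowest ratio. IL5RA, MMP25 and CSF1R are each in 2 lists. SOCS1, SPI1, CXCR1, SELPLG, CLEC4E, SEMA7A, RECK, THY1, PIGZ, AQP8, OLFM4, ARG1, GP9, CX3CR1, GATA2 and KLF1 fall outside that rule and were named after their values were seen, as members of small counts. A few genes that the rule gives are not reported here. Alternatives concerned the fold threshold (1.5 and 4), centring, a pseudocount of 1, low means, rows per symbol and leaving out libraries. Calculations used Python 3.11.15 with numpy 2.4.6, pandas 2.3.3 and scipy 1.17.1.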

Additional observations from a re-analysis of the deposited data

Results flagged for a closer look

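Dixon's test at the 95% level was made on 22 genes whose reads were recovered in the 4 libraries. These were BST1, ALPL, AQP9 and the list genes that the naming rule gives. The nearest genes, which that rule also gives, were not tested. Of the 22 genes, 2 had 1 library apart from the other 3. For normal values of equal spread, chance flags about 1 in 20. Many of these were small counts from libraries of unlike size factor, so the rate for them is not known. GP1BA, a platelet gene, had 179 normalized counts in the library with size factor 0.620 and 24.4 to 44.8 in the others. IL5RA, an eosinophil receptor chain, had 8.76 in the library with size factor 1.03, from 9 reads, and 0 to 1.28 in the others. BST1, ALPL and AQP9 had no such library.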

How the results depend on the processing

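At a fold of 4 in place of 2, 2 of the 6 genes were lower in the 4-library mean (CSF3R and ALPL) and 0 were higher, and at a fold of 1.5, FPR1 joined AQP9 so that 2 were higher. With a pseudocount of 1, an alternative chosen after seeing the data, the counts at 2-fold stayed at 4 lower and 1 higher. Leaving out single libraries of the 4 was possible for BST1, ALPL and AQP9 only, and left each past 2-fold. The log2 ratio then lay between -2.37 and -1.63 for BST1, between -4.58 and -2.47 for ALPL (without the library of size factor 0.620 the lower value) and between 1.34 and 2.01 for AQP9. Centring on the median of all rows shifted every log2 ratio by 0.14, with 13.1% of rows then at least 2-fold lower and 21.4% at least 2-fold higher, and the median of rows with a mean of at least 10 was -0.01. No gene of the 6 changed direction, but no setting tried could have reversed it. For BST1, ALPL and AQP9 all 4 libraries lay on the same side of the 7-library mean. For CSF3R, ANXA3 and FPR1 only a pseudocount and centring were tried, with shifts smaller than their ratios. The share of rows at least 2-fold higher in the 4-library mean was 12.3% with a mean of at least 10, against 23.9% in all rows. Of the 19 lists, 5 had a median past 2-fold (4 with means of at least 10, where the other GPI-anchored proteins, at 0.63, and the azurophil list dropped out and the aquaporins came in) and 8 a median past 1.5-fold. Limited to means of at least 10, the median of the aquaporins was -2.35 (1 gene). That of the list of specific and gelatinase granule and other mature neutrophil genes was -2.36. The azurophil and NK cell lists had no gene left. Each of the 6 genes had 1 row, so summing rows changed nothing. No paired analysis was possible because the table has no columns of single samples. The depth of the 4-library group limits ALPL most, with 6 reads, and the spread of the 7 libraries is unknown for all 6 genes.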
